A study of Homo sapiens with 12 samples.

Results

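The heat shock and DNAJ chaperone genes described here were the 69 rows, of 35337 in the deposited gene table, whose symbols name a cytosolic-type Hsp70, Hsp110, Hsp90, small Hsp, Hsp60 or Hsp10 protein, a J-domain protein of the DNAJA, DNAJB or DNAJC class, or the transcription factors HSF1 and HSF2. HSPA5, DNAJB9, DNAJB11 and DNAJC3, which work in the endoplasmic reticulum (ER), and rows whose symbols mark a pseudogene with a P were left out by the rule. DNAJB3 and HSPA7, which GENCODE v44 types as pseudogenes, carry no such mark and stayed in. The rule used symbols only and no measured value. Although the set was called cytosolic, at least 12 of the 69 encode proteins that work in the mitochondrion or the ER, such as HSPD1, HSPE1, HSPA9 and DNAJC10, so the name does not hold for these. Proteins of the ER membrane whose J domain faces the cytosol, such as that of DNAJB14, are not among the 12.

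The genes were measured in EndoC-βH3, a human beta-cell-like line derived from fetal pancreas, whose growth is driven by hTERT and SV40 large T antigen transgenes. The 6 senescent samples came from cells treated with 4-hydroxytamoxifen (4-OHT) for 3 weeks, which activates a CreER recombinase that cuts out both genes. The 6 non-senescent samples were untreated cells that still carried both, so loss of the transgenes, exposure to 4-OHT and senescence cannot be told apart. The labels call the genotype WT and state 1 mM 4-OHT, whereas the study's methods give a micromolar dose. Titles carry a batch letter, A for 2 samples per group and B for 4. Nothing says that replicates came from separate cultures, so p-values measure the spread between these samples, which may be technical.

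Chaperones keep proteins folded. Hsp70 proteins bind exposed stretches of a client, J-domain proteins bring the client and stimulate the Hsp70 ATPase, and Hsp110 proteins exchange the nucleotide so that the client is released. Hsp90 completes the folding of kinases and receptors, small Hsps hold unfolding proteins in solution, and HSF1 switches on many of these genes when proteins misfold. Beta cells make large amounts of one secreted protein, insulin, and depend on folding capacity in the ER as well as in the cytosol.

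RNA was read by CEL-seq2, which counts the 3′ end of each transcript, so read numbers do not grow with transcript length. Libraries held 8873569 to 17106776 reads in batch A and 4672924 to 7063264 in batch B. Values are normalised read counts, that is reads divided by a size factor of the library, and 1 read was worth 0.449 to 1.51 of them. Batch split the libraries on the first principal component, with 57.6% of the variance, and group on the second, with 19.3%. Replicates of a group differed in every pair by more than the sampling noise of independent reads. Reads may not be independent molecules, and the source of the excess was not tested. The proliferation marker MKI67 lay at 411 to 735 in non-senescent and at 63.7 to 88.4 in senescent libraries. The cell-cycle inhibitor CDKN1A lay at 24.5 to 76.0 in non-senescent libraries, at 133 and 134 in the senescent libraries of batch A, and at 1286 to 1501 in those of batch B. INS lay at 11021 to 34331 against 49685 to 185508. Of 8 beta markers, INS, IAPP, PDX1 and MAFA were higher in all senescent libraries than in any non-senescent one. NEUROD1 was lower in all senescent libraries of each batch, NKX6-1 in those of batch B alone and SLC30A8 in those of batch A alone. NKX2-2 lay at 728 to 956 against 803 to 975, with overlap.

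Markers of other cell types differed between the groups as well. All 3 alpha markers had reads and their sum, nearly all TTR, lay at 45352.5 to 122729 in non-senescent and 153071 to 242314 in senescent libraries, whereas GCG itself lay at 2463 to 5461 against 507 to 2985. The sum of the 2 delta markers, nearly all SST, lay at 159942 to 287891 against 115182 to 142729. The sum of 4 duct markers, mostly KRT19, lay at 246 to 379 against 80.4 to 162, and the sum of 4 acinar markers, mostly CPA1, at 33.9 to 58.4 against 143 to 251. PTF1A of acinar cells and PDGFRB of stroma had no reads in any library. The sum of 4 stromal markers was 6.36 to 130 against 10.3 to 48.1, and that of 2 immune markers was 19.9 to 51.1 against 13.5 to 40.9. Genes of the mitochondrial genome took 15.6% to 20.2% of the reads in non-senescent and 17.2% to 24.8% in senescent libraries. The part of these differences in the results below was not tested, and in bulk RNA fewer cells of a type and less RNA per cell cannot be told apart.

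Of the 69 genes, 60 averaged 5 or more normalised reads and were tested with all other such genes, 13847 in all. The log2 change is the log2 ratio of senescent to non-senescent cells, fitted with limma beside a term for batch, and SE is its standard error. A call needed an adjusted p below 0.1 together with a change of more than 1.5-fold. In senescent cells 6 chaperone genes rose, or 10.0% of those tested, beside 11.6% of all genes, and 9 fell, or 15.0%, beside 11.8% of all genes. The median log2 change was -0.03 for the 60 genes and 0.01 for all genes tested. The shares and the median of the set were thus close to those of all genes, and what follows is an account of single genes and classes. Without the limit on fold change, 13 chaperone genes were higher and 18 lower at an adjusted p under 0.1, beside 23.2% and 22.3% of all genes.

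**Figure D1:**
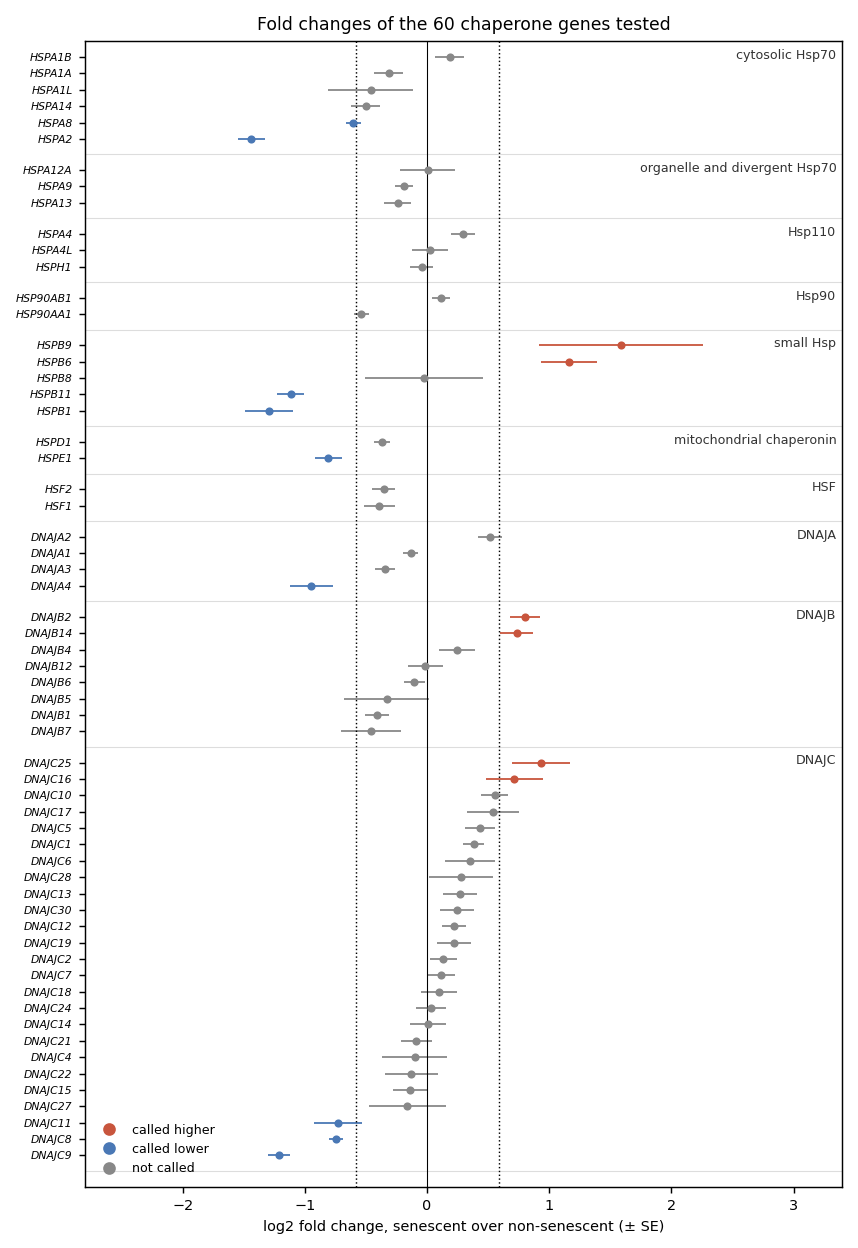
Log2 fold change of senescent over non-senescent cells (x axis, point with its standard error) of the 60 chaperone genes tested, grouped by class. Dotted lines mark the fold limit of 1.5; 6 genes called higher are red, 9 called lower are blue and 45 not called are grey.

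Of the 9 genes not tested, DNAJB3, DNAJB8, HSPA7, HSPA12B, HSPB2, HSPB3 and HSPB7 had no read in any library. A count of 0 allows up to 3 reads, or 1.35 to 4.52 normalised reads depending on the library, and covers counting error only. DNAJB13 had 19 reads over all libraries. HSPA6, the most strictly stress-induced Hsp70 gene, had 12, with at most 3 in a library of either group.

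All 69 genes together took 0.433% to 0.502% of the reads in non-senescent libraries and 0.350% to 0.376% in senescent ones, and the groups did not overlap. Such a share also depends on the reads that all other genes take. As a sum of normalised read counts, the set lay at 30792 to 34260 in non-senescent and 27047 to 28340 in senescent libraries, also without overlap. HSP90AB1, HSP90AA1 and HSPA8 were the 3 members with the most reads. HSPA8 supplied 13.6% to 15.2% of the set's reads in non-senescent and 10.2% to 12% in senescent libraries, and HSP90AA1 supplied 15.6% to 17.6% and 12% to 14.8%. The share of HSP90AB1 was 15.6% to 19.2% in non-senescent and 19.1% to 25.2% in senescent libraries.

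**Figure D2:**
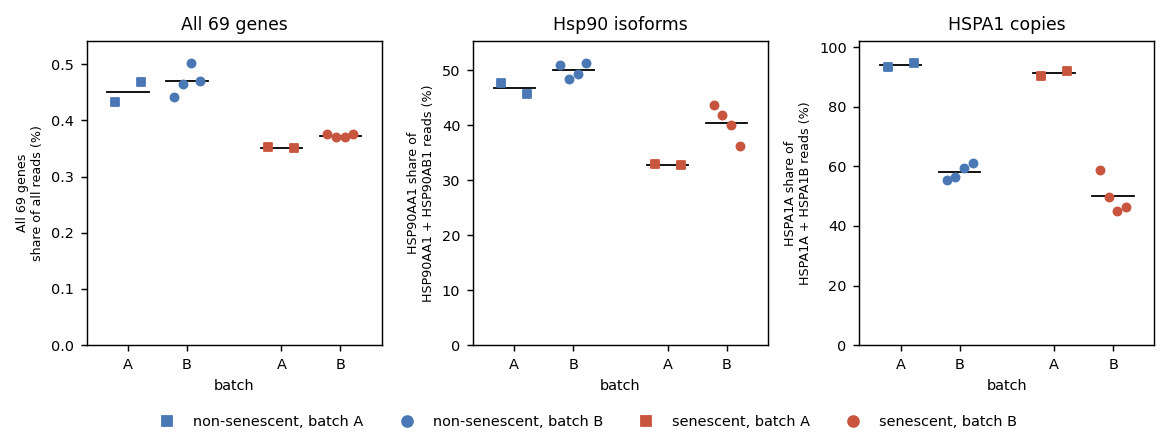
Share of all reads taken by the 69 genes (left), share of HSP90AA1 in the reads of both Hsp90 genes (middle) and share of HSPA1A in the reads of both HSPA1 copies (right), in percent, per library; each point is a library and each line the mean of a group in a batch. The left and middle shares are lower in all 6 senescent libraries, whereas the right share separates the batches.

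Among 6 cytosolic Hsp70 genes tested, HSPA8 and HSPA2 fell and 0 rose by limma, edgeR or DESeq2, and 0 were higher even at an unadjusted p under 0.05. Of all genes, limma called 11.8% lower and 11.6% higher, so counts in so small a class say little. HSPA8 encodes Hsc70, the Hsp70 that unstressed cells use for folding and for uncoating clathrin vesicles. Its normalised read count was 4181 and 4495 in non-senescent batch A and 4302, 4769, 4828 and 5119 in batch B. In senescent cells it was 3245 and 3153 in batch A and 2890, 3000.5, 3037 and 2871 in batch B. All 6 senescent libraries lay below all 6 non-senescent ones. This was a log2 change of -0.60 (SE 0.06, limma adjusted p 9.2e-07), or 1.52-fold lower, just over the fold limit. It was -0.44 within batch A, under the fold limit, and -0.69 within batch B, and without non-senescent library B4 it was -0.57, also under it.

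HSPA2, an Hsp70 best known from developing sperm cells, had 601 and 603 normalised reads in non-senescent batch A and 206 to 221 in batch B, with a median of 213. In senescent cells it had 233 and 272 in batch A and 58.8 to 86.0 in batch B, with a median of 75.5. The groups did not overlap within either batch, and batch A was the higher batch in both groups. HSPA2 fell by 1.44 on the log2 scale (SE 0.11, limma adjusted p 1.8e-08), or 2.71-fold, the largest fall among the 60 genes. The batches gave -1.26 (A) and -1.53 (B).

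HSPA1A and HSPA1B, neighbouring copies on chromosome 6 that encode the stress-inducible Hsp70, were not called. HSPA1A lay at 726 and 791 in non-senescent and 713 and 804 in senescent batch A, and at 369 to 454 and 264 to 412 in batch B. Batch A thus overlapped between the groups, and in batch B only senescent library B1 reached into the non-senescent range. HSPA1A had a pooled log2 change of -0.31 (SE 0.12, limma adjusted p 0.048), close to 0 in batch A and -0.47 in batch B. HSPA1B lay at 52.8 and 45.3 against 76.3 and 69.5 in batch A and at 257 to 337 against 268 to 323 in batch B. Its pooled log2 change was 0.18 (SE 0.12, limma adjusted p 0.25, 95% interval -0.07 to 0.44), 0.56 in batch A alone and -0.01 in batch B alone. HSPA1A took 90.3% to 94.6% of the reads of both copies in batch A and 45.1% to 61.0% in batch B, so the division between the copies followed the batch. The copies are nearly identical and the counting divides reads among similar transcripts, so only their sum is firm. The sum lay at 655 to 836 in non-senescent and 532 to 873 in senescent libraries, with a log2 change of -0.15 (SE 0.09, adjusted p 0.18).

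Some of the promoters hold the letters of the element that HSF1 binds, the heat shock element, built from GAA units that face alternate ways. The stretches below, from RefSeq promoters on GRCh38.p14, were chosen among genes with a match. The genes shown fell (HSPA8, HSPB1, DNAJC9), rose (HSPB6) or are the classic inducible copies (HSPA1A, HSPA1B). The other genes called higher or lower had no match to a heat shock element or an E2F-like site, and HSPB11 among them had no promoter to search. Matches in other genes that were not called, such as a 3-unit match of DNAJB6, are not shown. Capitals mark matches to 3 units in HSPA8, to 2 units in the HSPA1 and HSPB genes, and to an E2F-like site, read on the other strand, in DNAJC9. All stretches lie before the RefSeq start and are written 5′ to 3′ on the strand of the gene. The longest GENCODE v44 models of HSPA8 and HSPB6 start farther upstream, so their stretches lie inside those models.
HSPA8, chr11:123062159-123062386, minus strand: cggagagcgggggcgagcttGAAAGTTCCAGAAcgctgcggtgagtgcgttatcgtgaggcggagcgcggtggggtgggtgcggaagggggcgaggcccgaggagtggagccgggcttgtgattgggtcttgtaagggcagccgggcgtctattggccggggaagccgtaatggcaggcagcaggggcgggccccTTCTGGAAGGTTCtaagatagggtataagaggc
HSPA1A, chr6:31815417-31815464, plus strand: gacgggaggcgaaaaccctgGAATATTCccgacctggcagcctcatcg
HSPA1B, chr6:31827613-31827660, plus strand: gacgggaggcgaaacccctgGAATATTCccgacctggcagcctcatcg
HSPB1, chr7:76302471-76302518, plus strand: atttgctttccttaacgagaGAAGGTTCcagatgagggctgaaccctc
HSPB6, chr19:35757198-35757259, minus strand: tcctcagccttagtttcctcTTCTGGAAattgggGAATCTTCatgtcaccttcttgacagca
DNAJC9, chr10:73247256-73247290, minus strand: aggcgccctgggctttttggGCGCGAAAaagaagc

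The 2-unit element was searched as GAANNTTC or TTCNNGAA, which read the same on both strands, and the 3-unit element as GAANNTTCNNGAA or its reverse complement TTCNNGAANNTTC, each of which holds overlapping 2-unit matches. The window ran from 250 bases before to 50 bases after each start. Of the 69 genes, 59 matched a promoter. A 2-unit match was found in 14 of the 59 (23.7%), in 13.7% of all 27195 promoters and in 9.92% of the promoters of genes tested. It was found in 10 of 22 promoters of genes outside the DNAJ and HSF classes and in 4 of 36 DNAJ promoters. A 3-unit match was found in 4 of 59, those of HSPA8, DNAJA1, DNAJB6 and HSPA6, in 0.489% of all promoters and in 0.328% of those of genes tested. The 2-unit element was present in 2 of 8 promoters of genes that fell, 1 of 6 of genes that rose and 9 of 40 of tested genes not called. CCAAT, with its complement ATTGG, was found in 35.6% of the chaperone promoters and in 35.7% of all promoters. An E2F-like site, TTTCCCGC, TTTCGCGC, TTTGCCGC or TTTGGCGC on either strand, was found in 1 of 59, that of DNAJC9, in 3.34% of all promoters and in 5.25% of those of genes tested. A match of letters is not evidence that a factor binds there. Only exact letters in this window were searched, so a missing match does not show that an element is absent. Textbook HSF1 targets such as HSPE1, HSPD1, HSPH1, DNAJB1 and HSP90AA1 had no match to either heat shock element.

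**Figure D3:**
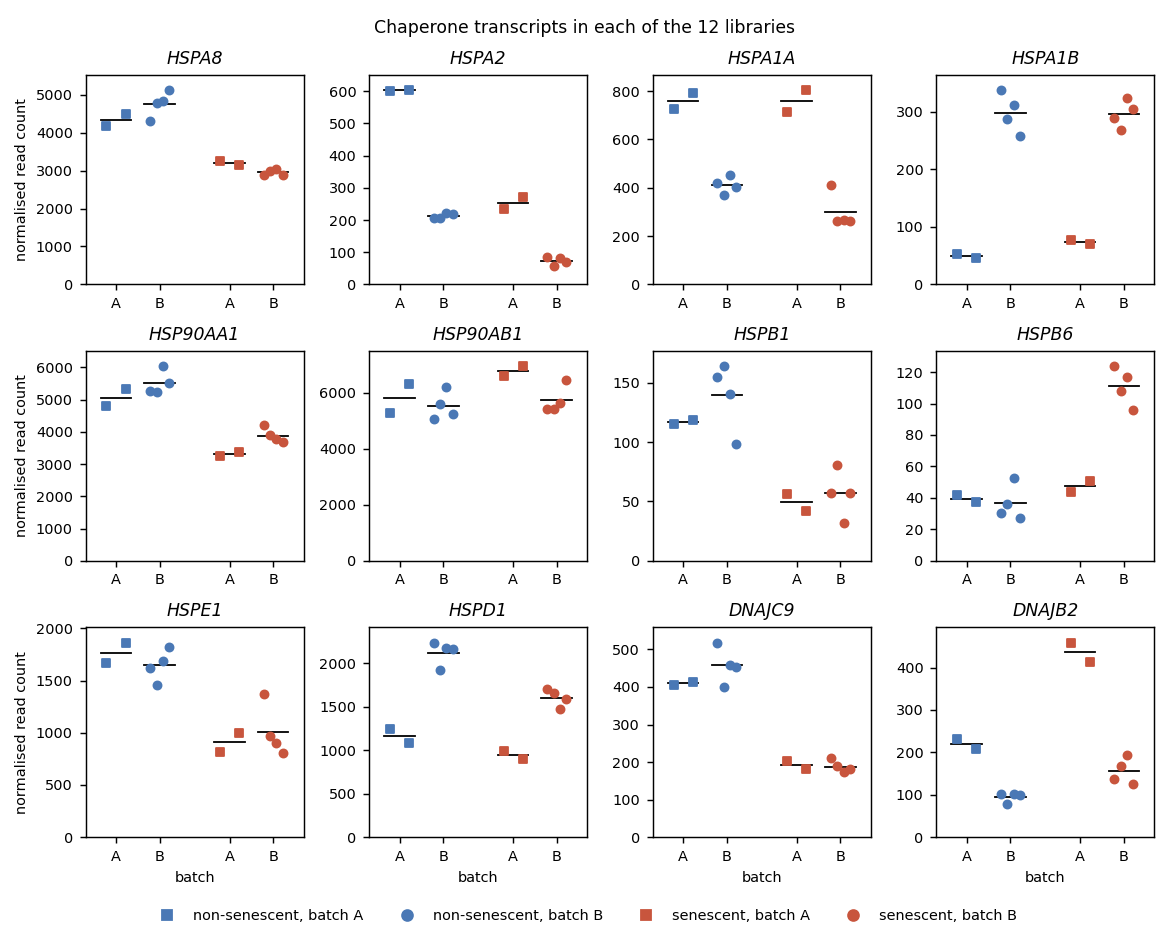
Normalised read count (y axis, from 0) of 12 chaperone genes in each library, by group and batch (x axis); each point is a library and each line the mean of a group in a batch. HSPA8, HSP90AA1, HSPB1, HSPE1 and DNAJC9 lie lower in all senescent libraries, HSPA2 and DNAJB2 separate the groups only within a batch, and the HSPA1 copies follow the batch.

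The other cytosolic Hsp70 genes did not pass both limits. HSPA14, a ribosome-associated Hsp70, had a log2 change of -0.50 (SE 0.12, limma adjusted p 0.0031), under the fold limit, and HSPA1L had -0.46 (SE 0.35, adjusted p 0.32). Summed over the class, the normalised reads were 5504 to 6313 in non-senescent and 3747 to 4579 in senescent libraries, and HSPA8 supplied most of this sum.

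None of the 3 Hsp110 genes was called by limma, edgeR or DESeq2, and 1 had an unadjusted p under 0.05. Limma called 11.6% of all genes higher and 11.8% lower. HSPA4 was 0.29 higher on the log2 scale (SE 0.10, limma adjusted p 0.027), under the fold limit, and HSPH1 had -0.04 (SE 0.09, adjusted p 0.74, 95% interval -0.24 to 0.15). HSPA4L, which is enriched in testis, lay at 195 and 149 in non-senescent and 116 and 108 in senescent batch A, and at 208 to 230 and 250 to 330 in batch B. It was thus lower in both senescent libraries of batch A and higher in all 4 of batch B. Its log2 changes of -0.60 in batch A and 0.34 in batch B differed by 0.94 (SE 0.21, limma adjusted p of the interaction 0.026), and the pooled value of 0.03 changed sign when every library was scaled to the same total. Of the 60 genes, 2 differed between batches in this test, beside 4.21% of all genes. The number was 0 without non-senescent library A1, senescent A1 or senescent A2, and 1 without non-senescent A2.

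The Hsp90 genes differed from each other. HSP90AA1, the inducible isoform, had a lowest, median and highest value of 4792, 5299 and 6029 in non-senescent and 3246, 3719 and 4201 in senescent libraries. The groups did not overlap, but the log2 change of -0.54 (SE 0.06, limma adjusted p 2e-06) stayed under the fold limit. Within batch A it was -0.61 and passed, and within batch B it was -0.50 and did not. Scaled to the same total, where the median of all genes moved to -0.09, it was -0.65 and passed. HSP90AB1, the constitutive isoform, lay at 5070, 5431 and 6332 in non-senescent and at 5406, 6051 and 6946 in senescent libraries. These ranges overlapped, and the log2 change was 0.11 (SE 0.07, adjusted p 0.25, 95% interval -0.04 to 0.27). HSP90AA1 therefore made up 45.7% to 51.2% of the reads of both genes in non-senescent and 32.7% to 43.7% in senescent libraries, without overlap.

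Of the small Hsp genes, 2 rose, 2 fell and 1, HSPB8, did not pass the test, at 77 reads over all libraries. The shares of all genes were 11.6% called higher and 11.8% called lower. HSPB1 encodes Hsp27, which binds actin and unfolding proteins. Its lowest, median and highest values were 98.2, 129 and 164 in non-senescent and 32.0, 56.8 and 80.8 in senescent libraries. The groups did not overlap, and HSPB1 fell by 1.30 on the log2 scale (SE 0.19, limma adjusted p 4.8e-05), or 2.46-fold. The batches gave -1.24 (A) and -1.33 (B). Rows of HSPB1 pseudogenes held 15.7% of the reads of the gene and these rows together, and with them added the value was -1.28. HSPB11, a subunit of the intraflagellar transport machinery of cilia despite its name, had 181, 232 and 347 in non-senescent and 81.3, 97.1 and 179 in senescent libraries. Within each batch all senescent libraries lay below the non-senescent ones, and the log2 change was -1.12 (SE 0.11, adjusted p 4.8e-07).

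HSPB6, or Hsp20, which is abundant in muscle, had 41.7 and 37.4 normalised reads in non-senescent and 43.99 and 50.7 in senescent batch A. In batch B it had 30.1, 35.8, 52.6 and 27.3 against 124, 108, 117 and 95.9. The 4 senescent libraries of batch B stood far above the rest, and those of batch A overlapped the non-senescent range of batch B. Pooled, this was a log2 change of 1.16 (SE 0.23, limma adjusted p 0.00066). It was 0.25 in batch A alone and 1.62 in batch B alone, a difference of 1.37 (SE 0.36, adjusted p of the interaction 0.063). CDKN1A differed between the senescent libraries of the batches in the same direction, and its relation to HSPB6 was not tested. The interaction of HSPB6 was lost without non-senescent library A1, A2 or senescent library A1, A2 or B1.

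HSPB9, a testis-expressed small Hsp, rose on the pooled data, with a log2 change of 1.59 (SE 0.67, limma adjusted p 0.071), and was the least certain call. All 4 libraries of batch A held 2 or 3 reads, no more than the limit that a count of 0 allows. Batch B held 20, 0, 12 and 10 reads in non-senescent and 47, 71, 33 and 27 in senescent libraries, or 0 to 30.1 against 33.6 to 74.5 normalised reads. The rise thus rests on batch B, and it was not called when any of the 4 senescent libraries of batch B was left out, with adjusted p from 0.10 to 0.15.

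The mitochondrial chaperonin genes HSPE1 and HSPD1 stand head to head on chromosome 2, and their products, Hsp10 and Hsp60, form the folding chamber of the matrix. The longest GENCODE v44 model of HSPD1 spans HSPE1 on the other strand. HSPE1 had 1462, 1679 and 1864 as lowest, median and highest value in non-senescent and 805, 932 and 1372 in senescent libraries. The groups did not overlap, although senescent library B1 stood well above the other senescent libraries. The log2 change was -0.81 (SE 0.11, limma adjusted p 1.8e-05), or 1.75-fold lower. HSPD1 had a log2 change of -0.37 (SE 0.07, adjusted p 0.00032), with the groups apart within each batch but under the fold limit. Pseudogene rows held 14.5% of the HSPE1 reads and 9.39% of the HSPD1 reads, and adding them gave -0.80 and -0.33. HSPA9, or mortalin, the Hsp70 of the matrix, had -0.19 (SE 0.07, adjusted p 0.048), and HSPA13 of the ER had -0.24 (adjusted p 0.10).

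HSF1 and HSF2 were under the fold limit. HSF1, the main heat shock factor, lay at 152 and 157 against 137 and 130 in batch A and at 82.6 to 112 against 54.6 to 73.5 in batch B. HSF2 lay at 507 and 540 against 366 and 391 in batch A and at 237 to 324 against 198 to 228 in batch B. Both were lower in all senescent libraries of their batch, with log2 changes of -0.39 (SE 0.13, limma adjusted p 0.022) and -0.35 (SE 0.09, adjusted p 0.0058). For transcription factors the RNA level does not report activity.

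Of 24 textbook HSF1 targets, 22 were tested, 0 rose and 5 fell, namely HSPB1, HSPE1, HSPA8, SERPINH1 and CACYBP, beside 11.6% of all genes called higher and 11.8% called lower. At any fold, 13 of the 22 were lower at an adjusted p under 0.1, beside 22.3% of all genes. HSPA1A was counted among them on its own, whereas the sum of both HSPA1 copies did not pass (-0.15, limma adjusted p 0.18). The median log2 change was -0.34, -0.15 in batch A alone and -0.41 in batch B alone, beside 0.01 for all genes. None was higher at an unadjusted p under 0.05, and edgeR and DESeq2 also called 0 higher and 5 lower. This list shares 13 tested genes with the 60. BAG3, an inducible Hsp70 cochaperone, was -0.21 (SE 0.25, limma adjusted p 0.55), and CRYAB had at most 5.51 normalised reads in a library and was not tested.

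The 40 DNAJ genes supply the partners that direct Hsp70 to its tasks, and 37 were tested. Of these, 4 rose and 4 fell, or 10.8% each, near the 11.6% and 11.8% of all genes. Among the 23 tested genes of the other classes 2 rose and 5 fell, or 8.7% and 21.7%. The median log2 change was 0.10 for the DNAJ genes and -0.31 for the other classes. These medians were compared as a description only.

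DNAJC9, which works with histones H3 and H4, had the clearest fall among the DNAJ genes. Its lowest, median and highest values were 401, 433 and 518 in non-senescent and 173, 185 and 210 in senescent libraries. The groups were far apart in both batches, a log2 change of -1.22 (SE 0.09, limma adjusted p 1.2e-08), or 2.32-fold lower. DNAJC8, which associates with the splicing machinery, had 1421, 1499 and 1589 in non-senescent and 808, 909 and 935 in senescent libraries. DNAJC8 fell by 0.75 on the log2 scale (SE 0.06, limma adjusted p 3.4e-08), nearly alike in both batches, and the groups did not overlap.

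DNAJA4, a cytosolic partner of Hsp70, lay at 298 and 296 in non-senescent and 129 and 164 in senescent batch A, and at 143 to 301 against 79.98 to 152 in batch B. Non-senescent library B4, the lowest of its group, fell inside the senescent range. DNAJA4 had a log2 change of -0.95 (SE 0.17, limma adjusted p 0.00035). DNAJC11, a mitochondrial protein needed for the shape of the cristae, lay at 57.2 to 134 against 35.7 to 86.4 with overlap, a log2 change of -0.73 (SE 0.20, limma adjusted p 0.0072).

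Among the genes that rose, DNAJB2, which carries client proteins to the proteasome and is best known from neurons, lay at 231 and 208 against 459 and 413 in batch A and at 77.1 to 102 against 126 to 195 in batch B. Within each batch all senescent libraries were above the non-senescent ones, whereas across batches the ranges overlapped. DNAJB2 rose by 0.80 on the log2 scale (SE 0.13, limma adjusted p 7.4e-05), or 1.74-fold. DNAJB14, an ER-membrane protein whose J domain faces the cytosol, had 65.8, 86.1 and 89.5 in non-senescent and 115, 134 and 157 in senescent libraries. The groups did not overlap, and the log2 change was 0.73 (SE 0.13, adjusted p 0.0003), although batch A alone, at 0.40, did not pass.

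DNAJC25 and DNAJC16 rose from low levels. DNAJC25 lay at 15.1 to 62.0 in non-senescent and 50.4 to 112 in senescent libraries and had a log2 change of 0.93 (SE 0.24, limma adjusted p 0.0049). Its transcript overlaps the read-through gene DNAJC25-GNG10, whose row held 1947 reads against 849 of DNAJC25 itself, and with both rows summed the value was 1.02. In batch A alone DNAJC25, at 0.65, did not pass. DNAJC16 lay at 11.7 to 26.2 against 27.3 to 39.9, without overlap, and had 0.71 (SE 0.23, adjusted p 0.022). It was under the fold limit without non-senescent library B3, at 0.56, and with a pseudocount of 8, at 0.55, and in batch B alone it had 0.66 (limma adjusted p 0.13).

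A further 7 chaperone genes were higher at an adjusted p under 0.1 but under the fold limit, of which 6 encode J-domain proteins. DNAJ genes were 37 of the 60 tested. At any fold, 10 of the 37 were higher at an adjusted p under 0.1, beside 23.2% of all genes. DNAJC10, an ER reductase that also removes misfolded proteins, had 0.55 (SE 0.11, limma adjusted p 0.00081), and DNAJC17 had 0.54 (SE 0.21, adjusted p 0.055). DNAJA2, a cytosolic Hsp70 partner, had 0.52 (SE 0.10, adjusted p 0.00051) and was higher in every senescent library of each batch. DNAJC5, the cysteine string protein of secretory vesicles, had 0.44 (SE 0.12, adjusted p 0.0094), and DNAJC1 of the ER membrane had 0.38 (SE 0.09, adjusted p 0.0025). DNAJC12 had 0.22 (adjusted p 0.084). Within batch A, DNAJA2 (0.79) and DNAJC10 (0.66) passed both limits, and DNAJC17 did within batch B (0.75) and by DESeq2. The seventh was HSPA4, given above.

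Of the most abundant DNAJ genes, DNAJA1 had -0.13 (SE 0.06, limma adjusted p 0.10), DNAJB6 had -0.10 (SE 0.09, adjusted p 0.38) and DNAJC2 of the ribosome had 0.13 (SE 0.11, adjusted p 0.37). DNAJA3, the J-domain protein of the mitochondrial matrix, had -0.35 (SE 0.08, adjusted p 0.0023), and the heat-inducible DNAJB1 had -0.41 (SE 0.10, adjusted p 0.0028), both lower in every senescent library of each batch and under the fold limit. The 21 tested DNAJ genes with an adjusted p over 0.1, these 3 included, had log2 changes between -0.46 and 0.35.

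**Figure D4:**
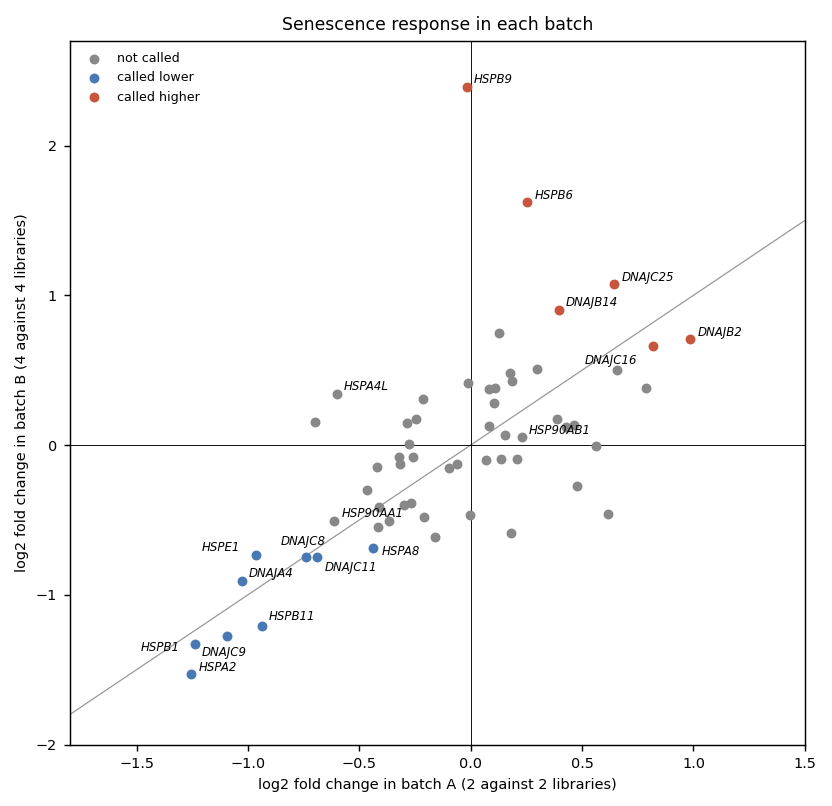
Log2 fold change of senescent over non-senescent cells in batch A (x axis) and in batch B (y axis) for the 60 chaperone genes tested; each point is a gene and the diagonal marks equal values. HSPB9, HSPB6 and HSPA4L lie farthest above the diagonal, with differences of 2.41, 1.37 and 0.94.

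The batches gave separate views of the same comparison. Within batch A, in a joint fit that shares the spread of both batches, 3 chaperone genes were called higher and 9 lower, beside 8.17% and 7.76% of all genes, and within batch B 7 were called higher and 9 lower, beside 13.1% and 13.3%. Fitted on its own libraries, batch A gave 5 higher and 10 lower, and batch B 6 and 9. Of these, 2 and 8 in batch A and 5 and 9 in batch B were also pooled calls. DNAJB14, DNAJC25, HSPB6 and HSPB9 were not called higher in batch A on its own. The fold change had the same sign in both batches for 45 of the 60 genes, as for 9750 of 13847 genes in all. Groups did not overlap within either batch for 7 chaperone genes that were higher and 14 that were lower, beside 11.9% of all genes in each direction.

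Partner genes outside the set were read from the same fit. Of 55 listed, 54 were tested, 6 rose and 3 fell, or 11.1% and 5.56%, beside 11.6% and 11.8% of all genes, so the share that rose was near that of all genes. BAG2, which acts on Hsp70 and on the ubiquitin ligase CHIP, lay at 137 to 230 in non-senescent and 63.0 to 107 in senescent libraries, without overlap, with a log2 change of -1.27 (SE 0.15, limma adjusted p 3.9e-06). CACYBP lay at 850 to 1502 against 598 to 795, also without overlap, with -0.70 (SE 0.08, adjusted p 1.6e-06), but in batch A alone it had -0.47 and was not called. SERPINH1, the collagen chaperone, lay at 19.3 to 26.3 against 4.85 to 20.6 and had -0.81 (SE 0.29, adjusted p 0.037), a call that was lost without senescent library B1, in batch B alone, and at a pseudocount of 8.

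The 29 Hsp90 and Hsp70 cochaperones had a median log2 change of -0.20, with 1 gene higher, CDC37L1 at 1.12 (SE 0.27, limma adjusted p 0.0036), and 13 lower at an adjusted p under 0.1 at any fold, beside 22.3% of all genes. Batch A alone gave a median of -0.0076 and batch B one of -0.26, so the pooled median came from batch B. Of the 8 subunits of TRiC, the cytosolic chaperonin that folds actin and tubulin, 0 were called by limma, edgeR or DESeq2, and 7 of 8 were lower at an unadjusted p under 0.05 and also at an adjusted p under 0.1, from -0.25 for CCT6A to -0.52 for CCT4, beside 22.3% of all genes. CCT7, among the 7, had 0.17 in batch A and -0.49 in batch B (limma adjusted p of the interaction 0.047). CCT3 had -0.17 (adjusted p 0.12). Of 6 prefoldin subunits, which hand actin and tubulin to TRiC, PFDN5 rose by 0.83 (SE 0.10, adjusted p 5.5e-06) and PFDN2 had -0.52 (SE 0.08, adjusted p 5.1e-05), under the fold limit.

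The ER chaperones that the rule left out gave other values. Of 6, 4 rose and 0 fell by limma, beside 11.6% and 11.8% of all genes, with 0 lower at an unadjusted p under 0.05. edgeR called 3 higher and DESeq2 4, with a median limma log2 change of 0.68. DNAJB11 had 0.11 (SE 0.08, limma adjusted p 0.28). DNAJC3 had 0.51 (SE 0.15, limma adjusted p 0.013), under the fold limit. HSPA5, or BiP, the Hsp70 of the ER lumen, lay at 1322 to 1852 in non-senescent and 2239 to 3841 in senescent libraries, without overlap, with 0.97 (SE 0.07, limma adjusted p 2e-08). HSP90B1, the Hsp90 of the ER, had 0.75 (SE 0.07, adjusted p 3.2e-07), DNAJB9 had 0.76 (SE 0.12, adjusted p 9.6e-05) and HYOU1, the Hsp110 of the ER, had 0.61 (SE 0.10, adjusted p 0.0001), close to the fold limit. HYOU1 was not called without non-senescent library B1, without senescent library B4, without the batch term, by edgeR, or with libraries scaled to the same total. In batch A alone HYOU1 (0.29), HSP90B1 (0.49) and DNAJB9 (0.50) were not called, so of the 4 rises that of HSPA5 was the one called in both batches. The rise of HSP90B1 differed between the batches, with 0.88 in batch B (limma adjusted p of the interaction 0.086). No test compared these genes with the cytosolic set as a group.

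**Figure D5:**
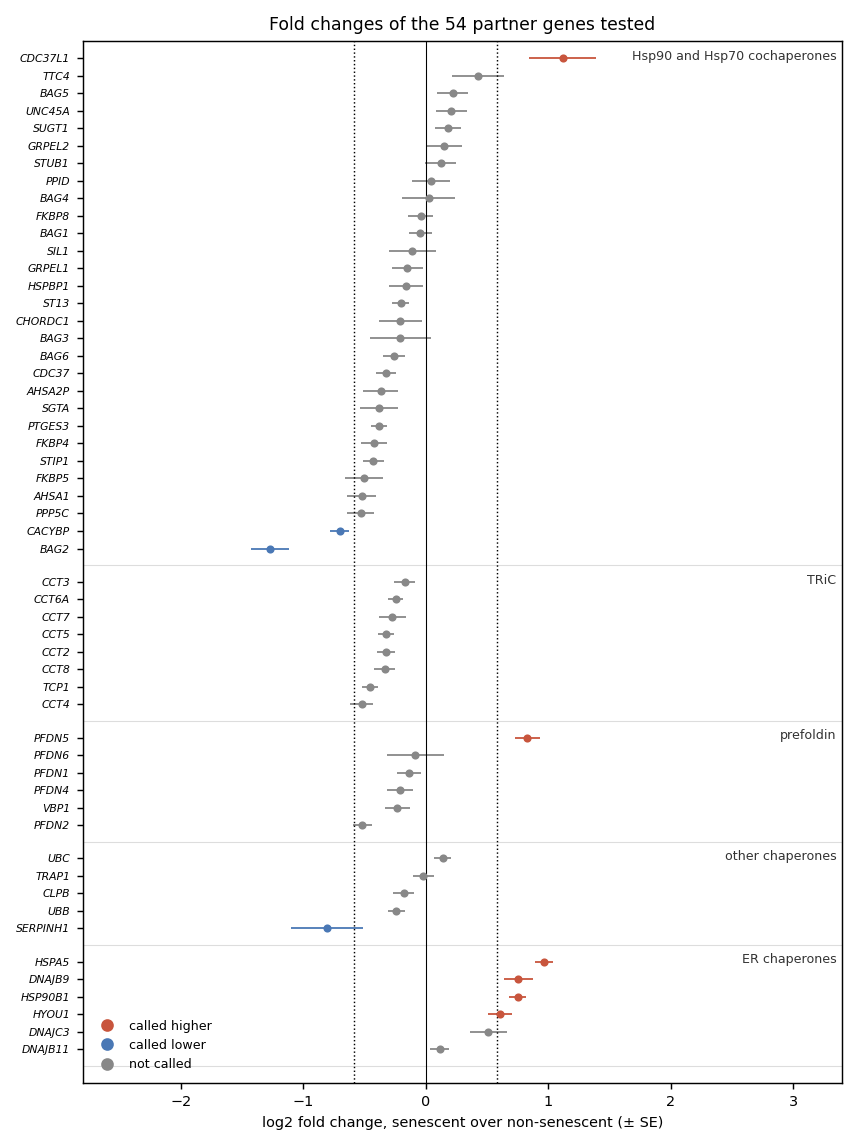
Log2 fold change of senescent over non-senescent cells (x axis, point with its standard error) of the 54 partner genes tested, grouped by list. Dotted lines mark the fold limit of 1.5; 6 genes called higher are red and 3 called lower are blue, and 7 of the 8 TRiC subunits lie below 0 with an adjusted p under 0.1.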

How the data were processed

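Poly(A) RNA of 6 senescent and 6 non-senescent samples was measured by CEL-seq2. Groups and batches came from the labels. Per the study's methods and the submitters' processing notes, the authors used Cutadapt for trimming, Salmon 0.13.1 on GRCh38 for counting, and DESeq2 for normalisation. Which transcripts were used, and whether molecular identifiers were collapsed, is not given in the sources used here, so reads may not be independent molecules. The deposited values are a signal, read counts divided by a size factor per library, which is not raw reads. The 6 deposited columns of the authors' own comparison (mean, log2 fold change with its error, a score, p-value and adjusted p-value) were not used.

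Every non-zero value was a whole multiple of the worth of 1 read (100% of 196021 values, tolerance 0.001), so whole reads were recovered for the alternative tests. Groups were compared by limma 3.58.1 (R 4.3.3) on log2(value + 1) with batch, group and a mean-variance trend, in genes averaging 5 or more. Changes of low genes are understated on this scale. P-values were Benjamini-Hochberg adjusted over all genes tested. edgeR 4.0.16 and DESeq2 1.42.0 on the recovered reads were alternatives, and edgeR called 1561 genes higher and 1677 lower, beside 1605 and 1632 by limma. In simulated data, 200 of 13847 genes were changed by a log2 of 1 or 2, alike in both batches. The procedure called 88.5% of them (80% at a log2 change of 1 and 97% at 2), and 95.7% of its calls were changed genes. The simulation held no smaller changes and far fewer changed genes than were called here. Its rates therefore do not carry over to the calls of these data.

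Genes named with values were all called genes, the classic members (HSF1 and HSF2, the HSPA1 copies, HSPA8, HSPA9, HSPH1, both Hsp90 genes, HSPB1, HSPD1, HSPE1, DNAJA1, DNAJB1), the 2 most abundant of each class, those with a batch interaction and called partners. Several members overlap another gene on the other strand (HSPE1 with HSPD1, DNAJC9 with FAM149B1, HSP90AA1 with WDR20, DNAJC11 with THAP3, DNAJC16 with AGMAT, DNAJA4 with SKIC8, HSPA2 with HSPA2-AS1). Whether counting used strand is not given in the sources used here. Other names account for the remaining members or lists and were chosen after their values were seen. Members and lists were chosen with earlier results of these data known. Positions and overlaps came from GENCODE v44 on GRCh38. The scaling, pseudocount, filter, batch term, libraries, call rule and tool were varied in turn. Summing pseudogene and read-through rows was added after seeing the data.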

Additional observations from a re-analysis of the deposited data

Results flagged for a closer look

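By Dixon's test at 95%, 5 single values stood far from the others of their group, in 64 groups of 4 and 64 of 6. The groups of 6 held both batches, and the groups of 4 were their batch B libraries. They thus overlap and mix batches, so the chance rate of about 1 in 20 does not hold for them. DNAJB2 was low in non-senescent library B2, at 77.1 normalised reads. DNAJC8 was low in senescent library B2, at 808. HSPA1A was high in senescent library B1, at 412, as was HSPE1, at 1372, and HSPA9 was low in senescent library B3, at 403. Leaving out each library in turn changed the sign of none of these 5 genes.

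The response differed between the batches for 2 genes, by a test of the difference itself. The log2 change in batch B minus that in batch A was 0.94 for HSPA4L (limma adjusted p 0.026) and 1.37 for HSPB6 (limma adjusted p 0.063).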

How the results depend on the processing

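Of 990 values of 32 named genes under 31 alternatives, 951 kept their direction and their side of the limits. The counts of 6 chaperone genes higher and 9 lower stayed within 1.5 times except without the limit on fold change, which gave 13 and 18. The genes behind a count could change more. Batch A alone called 5 higher, of which only 2 were among the 6. Partner genes called lower numbered 8 with libraries scaled to the same total, 6 in batch B alone and 25 without the fold limit, beside 3. Scaled to the same total, the median of all genes moved from 0.01 to -0.09 and genes called higher fell from 49.6% to 37.0% of all calls. The number of genes that differed between batches ranged from 0 to 2 when libraries were left out.

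Reversed signs occurred only in genes not called, apart from HSPB9, and the cause was not tested. In batch A alone the log2 change was -0.21 for DNAJC2, -0.60 for HSPA4L, 0.070 for HSPH1 and -0.018 for HSPB9, the last on 2 or 3 reads per library. In batch B alone HSPA1B had -0.0060. With the same total HSPA4L had -0.079. With libraries left out in turn, HSPA4L ranged from -0.056 to 0.155 and HSPH1 from -0.087 to 0.0052.

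Replicate numbers do not pair the samples. Same-numbered libraries had deviations that correlated at -0.05 to 0.02, and 1 of 8 libraries of batch B correlated best with its own number. With the replicate block, 6 chaperone genes were called higher and 9 lower, 6 and 3 partner genes likewise. HSPB9 was not called without the filter, without the batch term, without the trend or at an adjusted p under 0.05, and DNAJB2 was not called without the batch term. Counting error weighs most on genes with few reads, such as HSPB8 (77 reads in all), DNAJC28 (172), HSPB9 (229) and DNAJC16 (345).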
